A study of Homo sapiens with 9 samples.

Results

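Heat shock proteins and chaperones are the proteins that fold other proteins, hold them in solution and keep them from aggregating. The genes described here were all genes of the deposited table whose symbol begins as HSPA, HSPB, HSP90, CCT or DNAJA, DNAJB or DNAJC with a digit, or is HSPD1, HSPE1, HSPH1 or TCP1, pseudogenes left out. The rule took 94 of the 57338 genes. Of these, 81 were protein-coding and 13 were non-coding or read-through genes named after a chaperone. The protein-coding members were 12 HSP70 genes, 3 HSP110 genes, 3 HSP90 genes, 7 small HSP genes, 2 genes of the mitochondrial chaperonin, 10 genes of the cytosolic chaperonin TRiC with its relatives, and 44 J-domain genes (4 DNAJA, 12 DNAJB and 28 DNAJC).

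All 3 groups were labelled as HEK293T, a line grown from human embryonic kidney. The cells had been transfected with a plasmid that expresses EGFP, either alone (empty vector) or fused to the human protamine hPRM1 or hPRM2, and live cells with a high EGFP signal had been sorted 3 days later. Protamines are the small basic proteins that pack DNA in sperm, and the study asked what they do to transcription in a somatic cell. Each group had 3 libraries made with a kit that sequences the 3′ ends of polyadenylated transcripts, and the values are RPKM, which are reads per kilobase of gene length, scaled to the number of reads in the library. The sort kept high expressers from a transient transfection, so each library is a mixed population and not a clone. Nothing in the labels says whether replicates were separate transfections, so the p-values measure the spread between these libraries only.

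Chaperones work in relays. HSP70 proteins bind short unfolded stretches and let go of them in a cycle driven by ATP, J-domain proteins bring clients to HSP70 and start that cycle, and HSP110 proteins reset it. HSP90 finishes kinases, hormone receptors and other signalling clients, small HSPs hold unfolded proteins without ATP, and the chaperonins are barrels that enclose a client: TRiC folds actin and tubulin in the cytosol, and HSPD1 with its lid HSPE1 serves the mitochondrial matrix. Some genes are made all the time (HSPA8, HSP90AB1), and others answer heat or misfolded protein through the transcription factor HSF1, above all HSPA1A, HSPA1B and HSPA6.

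The labels had to be checked before the chaperones could be read. PRM2 ranged from 36130.2 to 71224 RPKM in the 3 hPRM2 libraries and was listed at 0 in the other 6. PRM1 was listed at 0 in all 9, also in the 3 libraries labelled hPRM1. Those 3 libraries held 83.2 to 86.6% of their summed RPKM in 4 haemoglobin genes, against at most 0.00057% in the other 6 libraries. Their summed RPKM of 7 neutrophil and monocyte markers was 5549.8 to 6390.4, against at most 3.02 in the empty vector and 19.3 in hPRM2. Markers of red cell precursors (1194 to 1726), lymphocytes (503 to 570.4) and platelets (319 to 560.4) were likewise high there, and stayed at or under 1.19, 1.02 and 13.5 in the empty vector and at or under 16.3, 0 and 2.25 in hPRM2. The 8 HEK293T markers summed to 632 to 679.7 RPKM in the empty vector and 365 to 821 in hPRM2. In the libraries labelled hPRM1 they summed to 11.4 to 13.0, with 7 of the 8 at 0. These 3 libraries also carry library numbers from another run of numbers than the other 6, so group and library batch cannot be told apart for them, and they are called the libraries labelled hPRM1 throughout. In hPRM2, replicate 1 stood apart, with correlations of 0.673 and 0.703 to the other 2 libraries, which correlated at 0.862. Reads on genes, estimated from the spacing of low values, came to 7960000 to 10750000 in the empty vector, then 4200000 to 5840000 in the libraries labelled hPRM1 and 1280000 to 2650000 in hPRM2, so the hPRM2 values carry the largest counting error. In bulk RNA, fewer cells of a type and less RNA per cell cannot be told apart.

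The stretches before the transcription start are shown first because the members that parted most, HSPA1A and HSPA1B, are near-copies. Both lie on the plus strand of chromosome 6, HSPA1A (ENSG00000204389) at chr6:31815464-31817946 and HSPA1B (ENSG00000204388) at chr6:31827735-31830255 (GRCh38, GENCODE 29). Their open reading frames were identical at 1922 of 1926 bases (99.8%), the 250 bases before their RefSeq starts at 93.6% of aligned positions, and the stretches after the open reading frame, of 264 and 379 bases, at only 47.4%. A 3′-end read can therefore tell them apart where it falls in the last stretch, but reads within the coding sequence could be given to either gene by the authors' counting. The 120 bases that end 11 bases before each start (RefSeq, GRCh38.p14, plus strand, chr6:31815413-31815532 for HSPA1A and chr6:31827608-31827727 for HSPA1B) are printed with a heat shock element of 2 units (GAANNTTC, which reads the same on both strands) and the TATA box (TATAAA) in capitals.
HSPA1A: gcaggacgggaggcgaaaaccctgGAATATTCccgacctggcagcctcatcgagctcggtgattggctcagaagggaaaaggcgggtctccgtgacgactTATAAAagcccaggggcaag
HSPA1B: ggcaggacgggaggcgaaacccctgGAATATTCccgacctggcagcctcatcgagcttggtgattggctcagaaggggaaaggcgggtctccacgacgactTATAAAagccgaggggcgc
Both promoters held both motifs at nearly the same place, the element 106 and 105 bases and the TATA box 30 and 29 bases before the RefSeq start. The GENCODE start of HSPA1A given above differs from its RefSeq start and lies inside its printed window, between the element and the TATA box. Of all 35116 promoters in the RefSeq table, 6.77% held GAANNTTC and 11.5% held TATAAA on either strand.

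A stricter heat shock element of 3 units (GAANNTTCNNGAA, or TTCNNGAANNTTC on the other strand) always contains the shorter one. It was found in 0.49% of all promoters and in 7 of the 94 promoters listed for the 73 protein-coding members with an entry (7.45%). The members were HSPA8, HSP90AB1, HSP90AA1, HSPA6, HSPD1, DNAJB6 and DNAJA1, where the match lay after the start and is not printed. The other 6 are printed with the element in capitals because they include the 2 most abundant HSP90 genes, the constitutive HSPA8 and the heat-inducible HSPA6, which moved apart in these data.
HSPA8 (chr11:123062169-123062201, minus strand): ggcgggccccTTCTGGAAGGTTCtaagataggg
HSP90AB1 (chr6:44247821-44247853, plus strand): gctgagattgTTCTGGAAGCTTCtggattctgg
HSP90AA1 (chr14:102087110-102087142, minus strand): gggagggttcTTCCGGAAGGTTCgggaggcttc
HSPA6 (chr1:161524456-161524488, plus strand): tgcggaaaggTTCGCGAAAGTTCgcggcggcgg
HSPD1 (chr2:197500058-197500090, minus strand): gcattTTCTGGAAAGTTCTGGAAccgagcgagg
DNAJB6 (chr7:157336863-157336895, plus strand): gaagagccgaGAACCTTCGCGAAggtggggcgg
The capitals in HSPD1 span 2 overlapping matches. The endoplasmic reticulum stress element (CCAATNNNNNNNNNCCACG, or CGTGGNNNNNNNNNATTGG on the other strand) was in 0.0769% of all promoters and in 2 members, the endoplasmic reticulum chaperones HSPA5 and HSP90B1, described below.
HSPA5 (chr9:125241381-125241419, minus strand): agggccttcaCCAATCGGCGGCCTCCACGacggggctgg
HSP90B1 (chr12:103930311-103930349, plus strand): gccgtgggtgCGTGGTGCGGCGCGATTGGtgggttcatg
A match describes the letters of these windows only. The starts are those of RefSeq, and the windows of HSPA8, HSP90AB1, HSP90AA1, HSPD1, DNAJB6 and HSP90B1 lie within the GENCODE spans of their genes. That of HSPD1 also lies within the span of HSPE1.

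In the empty vector the chaperones were led by HSP90 and TRiC. HSP90AA1, the inducible cytosolic HSP90, had the highest mean at 1443 ± 481 RPKM (SD, n = 3), followed by CCT2, a TRiC subunit, at 1225 ± 46.0. Their order was not settled, since HSP90AA1 ranged from 889 to 1749 and CCT2 from 1172 to 1254. HSP90AB1, the constitutive HSP90, at 789 ± 100.2 and CCT4 at 766 ± 3.28 came next and also overlapped, and the small heat shock protein HSPB1 followed at 563 ± 116. HSPA8, the main cytosolic HSP70, stood at 253 ± 35.4. Since the kit read only the 3′ ends, division by gene length lowers long genes against short ones, and the order of genes carries that effect. Of the 81 genes, 21 had a mean of at least 100 RPKM, 28 lay between 10 and 100, 16 between 1 and 10 and 16 under 1. The 8 genes listed at 0 in all 3 libraries were DNAJA4, DNAJB7, DNAJB8, DNAJC5B, HSPA12B, HSPB3, HSPB7 and CCT8L2, among them genes known from testis or muscle.

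Against the empty vector, the libraries labelled hPRM1 had lower levels of most tested chaperones, while HSPA1A, HSPA6, HSPA1L and DNAJA4 were called higher. DNAJB2 lay above the control without passing the 2-fold limit, and DNAJC5 did not pass the test either (adjusted p = 0.202, limma). Limma on log2(RPKM + 1) called a gene at an adjusted p of at most 0.05 (Benjamini-Hochberg over 13588 genes) and a change of at least 2-fold, and 62 of the 81 members passed the filter of 1 RPKM in 3 of the 6 libraries. Of the 62, 52 were called lower and 4 higher, where 62.5% of all tested genes were called lower and 12.9% higher. The per-gene test of the study's methods called 33 lower and 2 higher (27.4% and 5.83% of all genes). Of the 52, 11 passed the filter only through the empty vector, and DNAJA4 and HSPA1L only through the libraries labelled hPRM1, so that for these 13 the filter itself required a difference. Groups did not overlap for 58 of the 62, and for 80.8% of all genes. The median change of the members was -3.03 on the log2 scale, beside -1.72 for all tested genes, so every change here has to be read against that shift. With size factors from the median of ratios, the median over all genes became 0.34 and that of the members -0.90, and 27 of 63 members were called lower and 8 higher (23.6% and 35.5% of all genes). With quantile normalization 35 of 62 were called lower and 6 higher (32.3% and 25.6%). The 8 called higher under the median of ratios were HSPA1A, HSPA6, HSPA1L, DNAJA4, DNAJB2, DNAJB12, DNAJC3 and DNAJC5. The haemoglobin, leukocyte and HEK293T marker levels given above moved with this comparison, and their part in the result was not tested.

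The classes did not move alike. The mitochondrial chaperonin had the lowest median change (-5.59), followed by TRiC (-4.47), HSP110 (-4.06), the small HSPs (-3.52), HSP90 (-3.47), HSP70 (-3.32) and DNAJA (-2.73), while DNAJC (-2.13) and DNAJB (-2.12) lay nearest to the median of all genes. Leaving out genes listed at 0 in a whole group, for which a fitted change is no measure of size, changed the HSP110, small HSP, DNAJA and DNAJC medians to -4.17, -3.44, -2.86 and -2.11. All 8 tested TRiC genes, all 3 HSP110 genes and both chaperonin genes were called lower under the median of ratios as well. By contrast the count of lower calls went from 3 to 1 for HSP90, from 6 to 3 for HSP70, from 3 to 0 for DNAJA, from 7 to 1 for DNAJB and from 18 to 8 for DNAJC under that scaling. The medians and counts include 11 genes that passed the unscaled filter only through the empty vector, for which the filter itself required a difference. They are HSPA13, HSPA14, HSPA4L, HSPB8, DNAJB4, DNAJB5, DNAJC6, DNAJC12, DNAJC18, DNAJC25 and DNAJC28. Of the lower calls left in HSP70, DNAJB and DNAJC, those of HSPA13, HSPA14, DNAJB4, DNAJC6, DNAJC12, DNAJC18 and DNAJC25 belong to them.

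**Figure D1:**
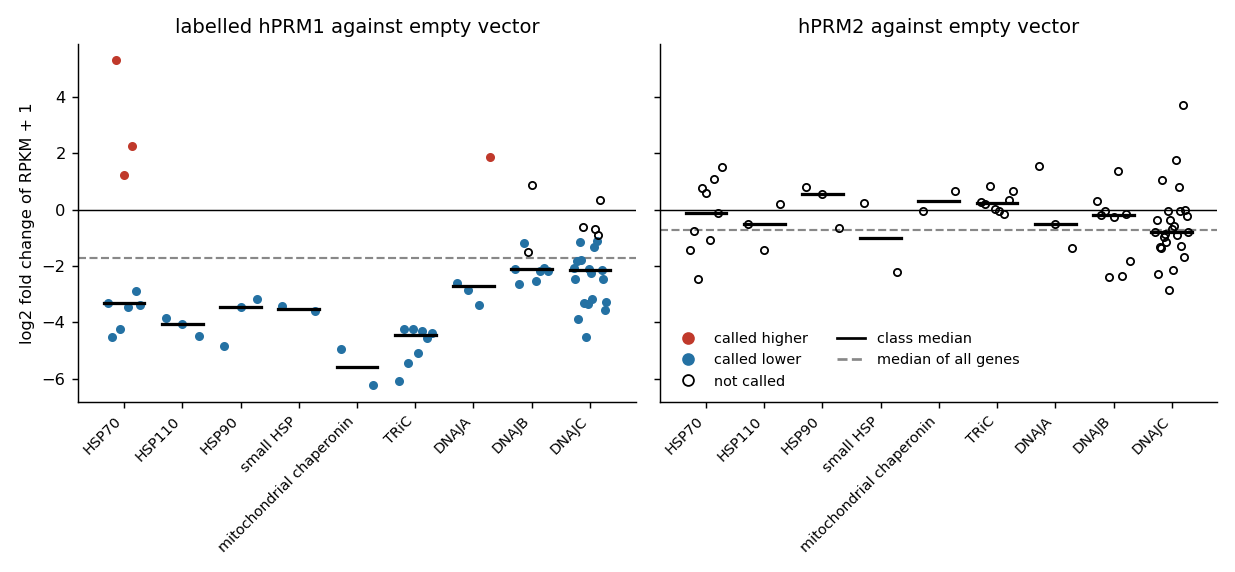
Change of each tested member (points, log2 fold change of RPKM + 1) by chaperone class in the libraries labelled hPRM1 (left) and in hPRM2 (right), each against the empty vector. Bars are class medians and the dashed line is the median of all genes tested (-1.72 and -0.72). On the left all 8 TRiC points lie between -6.09 and -4.23 while HSPA1A stands at 5.30, and on the right 0 members were called.

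HSP70 was the class that split most widely, with changes from -4.53 to 5.30. DNAJA split as well, since DNAJA4, which passed the filter only through the libraries labelled hPRM1, was called higher and DNAJA1, DNAJA2 and DNAJA3 lower. HSPA1A read 0.961, 0 and 4.39 RPKM in the empty vector, then 71.2, 106 and 82.7 in the libraries labelled hPRM1, and 4.12, 2.61 and 1.8 in hPRM2. Its near-copy HSPA1B read 89.0, 73.8 and 66.0 in the empty vector, then 1.52, 6.02 and 2.80 in the libraries labelled hPRM1, and 168, 94.2 and 92.6 in hPRM2. The 2 genes thus changed places, with no overlap between the libraries labelled hPRM1 and the other 6 for either. HSPA1A was called higher by 5.30 ± 0.60 (log2 ± SE, adjusted p = 0.000195, limma) and HSPA1B lower, at -4.24 ± 0.39 (adjusted p = 7.92e-05), and both calls stood under the median of ratios (7.12 and -2.02). Within a library the share of HSPA1A in the RPKM of the pair was 2.44% ± 3.34 in the empty vector, then 96.4% ± 1.65 in the libraries labelled hPRM1 and 2.33% ± 0.397 in hPRM2 (SD, n = 3 each). An exact two-sided permutation test gave p = 0.1 for the libraries labelled hPRM1 against either group, which is the smallest that 3 against 3 allows. The shares do not change when a library is multiplied by a factor. Estimated from GENCODE lengths, HSPA1B rested on 1431 to 1610 reads per library in the empty vector and on 20.2 to 57.4 in the libraries labelled hPRM1, and HSPA1A on at least 690.2 reads in each of the latter.

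HSPA6, a strictly inducible HSP70 (ENSG00000173110, chr1:161524540-161526910, plus strand), read 4.04, 4.41 and 4.07 RPKM in the empty vector, and the libraries labelled hPRM1 had 19.9, 22.5 and 28.7, a rise of 2.24 ± 0.21 (adjusted p = 8.95e-05). HSPA1L, an HSP70 of the same chromosome 6 cluster that is known from testis, was low everywhere but higher in these libraries (2.01, 3.42 and 1.75 against 0.990, 0.408 and 0), at 1.24 ± 0.33 (adjusted p = 0.0109). The other 6 tested HSP70 genes fell. HSPA8 went from 261, 284 and 215 to 29.7, 31.5 and 37.9 RPKM (-2.90 ± 0.19, adjusted p = 1.97e-05), a 7.67-fold drop of the mean. HSPA5, the HSP70 of the endoplasmic reticulum, went from 255, 216 and 184 to 15.5, 25.1 and 17.3 RPKM (-3.45 ± 0.24). HSPA9, the mitochondrial HSP70, read 44.5, 42.7 and 7.09 against 4.4, 0 and 1.6, and HSPA14, which works at the ribosome, read 21.8 to 43.2 against 0.144 to 0.516. The 3 HSP110 genes fell together: HSPH1 went from 150.5 to 173 RPKM down to 5.02 to 7.47 (-4.49 ± 0.20), HSPA4 from 58.2 to 71.0 down to 2.93 to 3.89 (-3.84 ± 0.20), and HSPA4L from 13.8 to 19.7 to a listed value of 0 in all 3 libraries. HSPH1 (-2.12) and HSPA4 (-1.58) stayed called under the median of ratios, where HSPA8 did not (-0.42, adjusted p = 0.102, limma). HSPA5 passed the adjusted p there but fell just short of 2-fold (-1.0, adjusted p = 0.00384, limma). HSPA13, HSPA14 and HSPA4L are among the 11 genes that passed the filter only through the empty vector. HSPA1L passed it only through the libraries labelled hPRM1, so for these genes the filter itself required a difference.

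**Figure D2:**
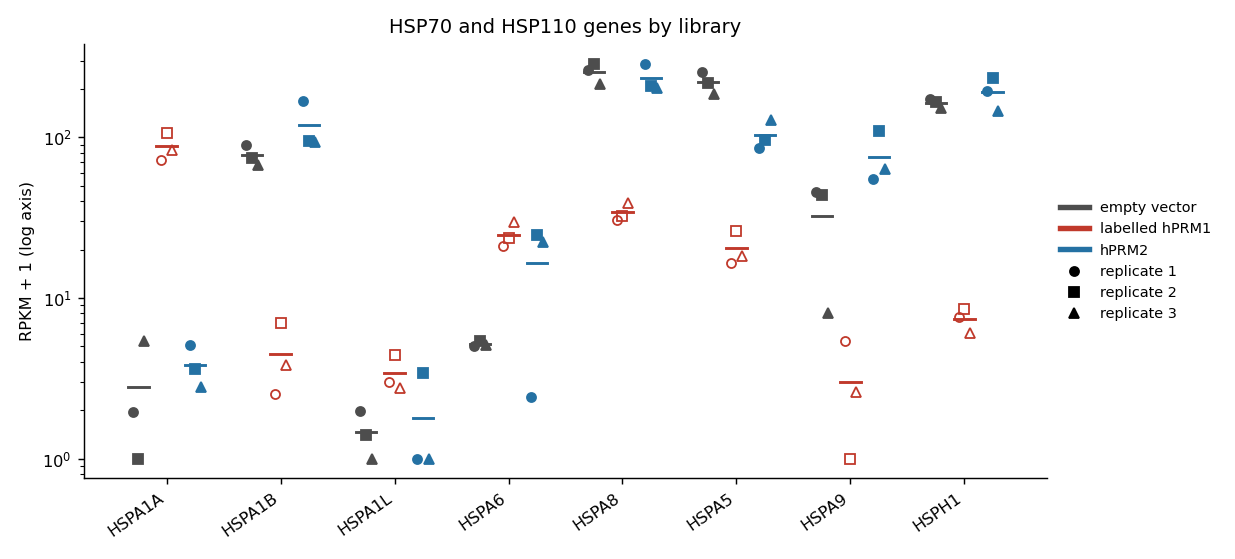
RPKM + 1 on a log axis for 7 HSP70 genes and HSPH1 in every library. Colour gives the group, the marker shape the replicate number and the bar the group mean. HSPA1A is high (71.2 to 106 RPKM) only in the libraries labelled hPRM1, where HSPA1B is at 1.52 to 6.02.

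Both cytosolic HSP90 genes were lower in the libraries labelled hPRM1. HSP90AA1 read 1691, 1749 and 889 RPKM in the empty vector and 48.3, 45.3 and 48.8 in those libraries, a fall of 30.4-fold in the mean (-4.83 ± 0.28 on the log2 scale, adjusted p = 1.29e-05). HSP90AB1 (ENSG00000096384, chr6:44246166-44253888) read 761, 900 and 706 against 59.7, 77.5 and 74, which is 11.2-fold lower (-3.47 ± 0.18, adjusted p = 8.65e-06). Under the median of ratios HSP90AA1 stayed called (-2.34) and HSP90AB1, at -0.97, fell short of 2-fold. The order of the pair turned: HSP90AA1 made up 63.6% ± 6.94 of the 2 together in the empty vector, 67.5% ± 6.07 in hPRM2 and 40.5% ± 3.98 in the libraries labelled hPRM1 (n = 3 each, exact permutation p = 0.1 for the libraries labelled hPRM1 against either). The processed pseudogene HSP90AA2P had 27.8 to 78.2 RPKM in the empty vector, and the libraries labelled hPRM1 had 0.536 to 1.90, so the counting may have split reads between it and HSP90AA1. HSP90B1, the HSP90 of the endoplasmic reticulum, went from 173, 139 and 129 to 10.8, 19.9 and 16.1 RPKM (-3.18 ± 0.26, adjusted p = 5.07e-05), a change of the size seen for HSPA5.

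The chaperonins fell furthest. CCT2, at 1172, 1249 and 1254 RPKM in the empty vector, read 12.8, 20.4 and 18.5 in the libraries labelled hPRM1 (-6.09 ± 0.21, adjusted p = 3.29e-06), the smallest adjusted p of all members. CCT4 went from 764, 765 and 770 to 18.0, 12.7 and 19.8 (-5.45 ± 0.20), and CCT6A from 505, 495 and 322 to 8.22, 14.4 and 13.9 (-5.08 ± 0.29). The other 5 tested subunits (TCP1, CCT3, CCT5, CCT7 and CCT8) had changes between -4.55 and -4.23. The 8 subunits stand in equal numbers in the TRiC ring, but their RPKM values in the empty vector ran from 109 ± 8.23 for CCT5 to 1225 ± 46.0 for CCT2. In the libraries labelled hPRM1 the means lay closer together, from 4.88 for CCT5 to 19.0 for CCT8. CCT6B, a testis form of CCT6A, stayed at or under 1.38 RPKM in every library, and CCT8L2 was listed at 0 in all 9.

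HSPE1, the lid of the mitochondrial chaperonin, had the largest fall of all tested members: 449.7, 409 and 388 RPKM in the empty vector against 8.69, 2.04 and 4.65 (-6.24 ± 0.41, adjusted p = 2.06e-05). HSPD1, the barrel, went from 389, 391 and 344 to 14.1, 11.7 and 8.60 (-4.94 ± 0.22, adjusted p = 5.24e-06). The genes lie head to head on chromosome 2 (HSPE1 at chr2:197499994-197503457 on the plus strand, HSPD1 at chr2:197486581-197516737 on the minus strand) and overlap in GENCODE 29, and whether the counting used strand is not given in the sources used here. HSPE1 made up 52.6% ± 1.32 of the pair in the empty vector, then 29.3% ± 12.7 in the libraries labelled hPRM1 and 61.5% ± 22.2 in hPRM2 (n = 3 each). The hPRM2 share ran from 42.4 to 85.9%, a spread that spans the empty vector.

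**Figure D3:**
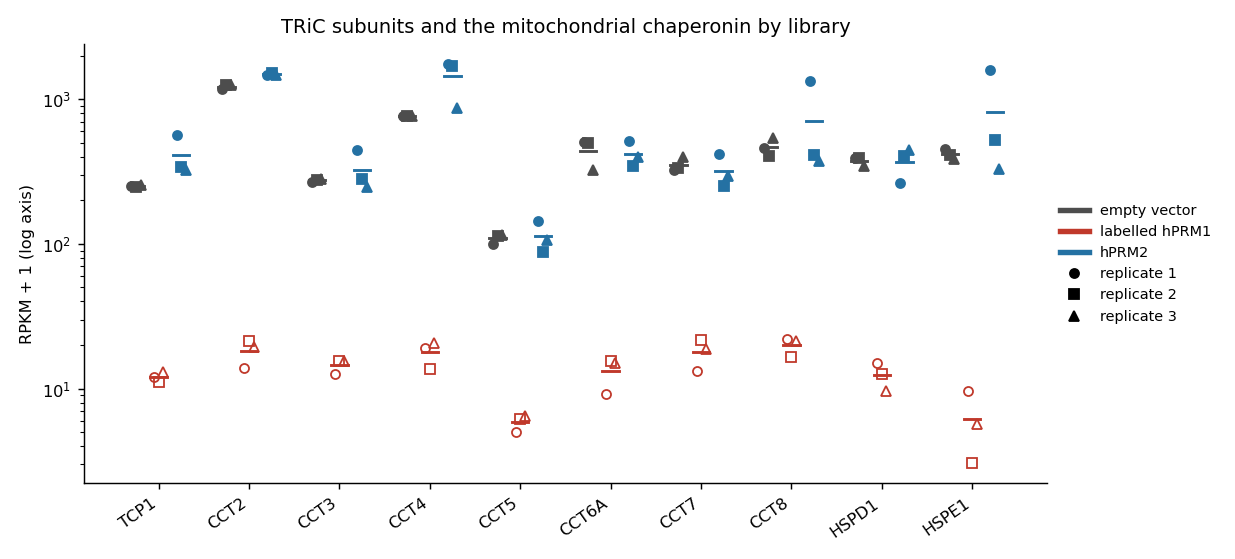
RPKM + 1 on a log axis for the 8 tested TRiC genes, HSPD1 and HSPE1 in every library, with colours, shapes and bars as in the plot of the HSP70 genes. The libraries labelled hPRM1 lie far below the other 6 for every gene, and hPRM2 replicate 1 lies above all the others for CCT8 (1336 RPKM) and HSPE1 (1597 RPKM).

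Of the 7 small HSP genes, HSPB1 and HSPB8 passed the filter. HSPB1, the main small HSP, read 547, 456 and 687 RPKM in the empty vector, and the libraries labelled hPRM1 had 39.2, 60 and 53.9 (-3.44 ± 0.24, adjusted p = 2.40e-05). HSPB8, a partner of BAG3 in selective autophagy, went from 9.35, 14.8 and 10.1 to a listed 0 in all 3, and passed the filter only through the empty vector. The remaining 5 had no value above 12.6 RPKM in any library, that highest value being HSPB9 in hPRM2.

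The DNAJB and DNAJC medians were the least reduced, and all 6 tested members that were not called in either direction belonged to these 2 classes. In DNAJA, DNAJA3, the mitochondrial J protein and the most abundant of its class, went from 332, 285 and 289.9 to 24.0, 33.9 and 27.3 RPKM (-3.38 ± 0.19), and DNAJA1 from 121, 121 and 82.6 to 14.4, 14.1 and 22.8 (-2.60 ± 0.27). DNAJA4, listed at 0 in all 6 other libraries, had 3.33, 1.58 and 3.25 in the libraries labelled hPRM1. In DNAJB, DNAJB6, an inhibitor of polyglutamine aggregation, went from 75.4, 99.9 and 102 to 20.0, 22.3 and 21.4 (-2.06 ± 0.19) and the stress-inducible DNAJB1 from 101, 83.3 and 76.8 to 17.7, 20.0 and 19.9 (-2.12 ± 0.19). These falls lay near the shift of all genes, and under the median of ratios the signs turned (0.39 and 0.33) and neither was called. DNAJB2, known for its role in neurons, read 26.6, 23.0 and 20.2 against 7.51, 14.3 and 17.2, a difference of 0.86 ± 0.32 that fell short of 2-fold and was called higher under the median of ratios (3.21).

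Of the 22 tested DNAJC genes, 18 were called lower and the other 4 were not called. Among the 18, DNAJC6, DNAJC12, DNAJC18, DNAJC25 and DNAJC28 passed the filter only through the empty vector. DNAJC8, a splicing factor with a J domain, was the most abundant and went from 356, 390.1 and 310.4 to 22.8, 26.4 and 40.1 RPKM (-3.56 ± 0.24, adjusted p = 2.41e-05). DNAJC19, of the mitochondrial import motor, had the largest fall of the class, from 88.8, 95.0 and 76.2 to 5.83, 0.986 and 2.93 (-4.54 ± 0.44). DNAJC12, from 14.2, 24.1 and 7.69, was listed at 0 in all 3 libraries labelled hPRM1. DNAJC5, the cysteine string protein of secretory vesicles, had similar values in both groups (10.3, 13.2 and 13.0 against 14.5, 19.1 and 13.5, a difference of 0.34 ± 0.22). DNAJC3, DNAJC4 and DNAJC16 were the other 3 that were not called, at -0.69 ± 0.41, -0.91 ± 0.57 and -0.61 ± 0.31.

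By compartment, 10 of 13 endoplasmic reticulum members, 8 of 9 tested mitochondrial members and 10 of 13 heat-inducible members were called lower, with medians of -2.45, -3.38 and -3.44, beside 62.5% lower and a median of -1.72 for all genes. Under the median of ratios the lower calls were 3 of 13, 3 of 8 and 6 of 13, beside 23.6% of all genes. Called higher were 2 endoplasmic reticulum members and 3 heat-inducible members, beside 35.5% of all genes. Without that scaling the higher calls in these lists were HSPA1A, HSPA6 and HSPA1L, all heat-inducible members, beside 12.9% of all genes. HSPA1L, listed there though known from testis, passed the filter only through the libraries labelled hPRM1. For HSPA1L the filter itself required a difference, so its call does not set the list apart. HSPA1A and HSPA6 alone, of the 13, are a share near that of all genes. Of the 7 members with a heat shock element of 3 units in their promoter, HSPA6 was called higher and the other 6 lower. Under the median of ratios HSPA6 stayed called higher, and of the 6 only HSP90AA1 and HSPD1 stayed called lower.

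As shares of the summed RPKM of the 81 members, which no factor applied to a whole library can change, the makeup shifted from TRiC to HSP70 and the J proteins. The sum itself was 10488, 10650 and 9270.3 RPKM in the empty vector, then 662, 829.8 and 773 in the libraries labelled hPRM1, and 15190.3, 13721 and 11674 in hPRM2. With haemoglobin left out of the table's summed RPKM, the members took 0.294 to 0.408% of it in the empty vector and 0.189 to 0.218% in the libraries labelled hPRM1, a smaller gap than that of the sums. In hPRM2 they took 0.4, 0.0651 and 0.0643%, so the higher sums of hPRM2 replicates 2 and 3 went with smaller shares of their tables. Within the members, TRiC made up 36.6, 36.5 and 42.4% of their sum in the empty vector, then 14.9, 13.8 and 15.9% in the libraries labelled hPRM1, and 43.8, 36.0 and 35% in hPRM2. HSP70 made up 6.60, 6.48 and 5.64%, then 21.9, 23.5 and 22.4%, then 4.01, 4.04 and 4.46%. The HSP70 share thus did not overlap between any pair of groups. DNAJB went from 2.61% ± 0.0518 to 10.3% ± 0.857 in the libraries labelled hPRM1 and stood at 1.92% ± 0.393 in hPRM2, and DNAJC from 9.14% ± 0.713 to 17.5% ± 1.26 and 6.04% ± 1.77. In the libraries labelled hPRM1, HSPA1A alone was the most abundant member, at 11.5% of the mean sum.

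**Figure D4:**
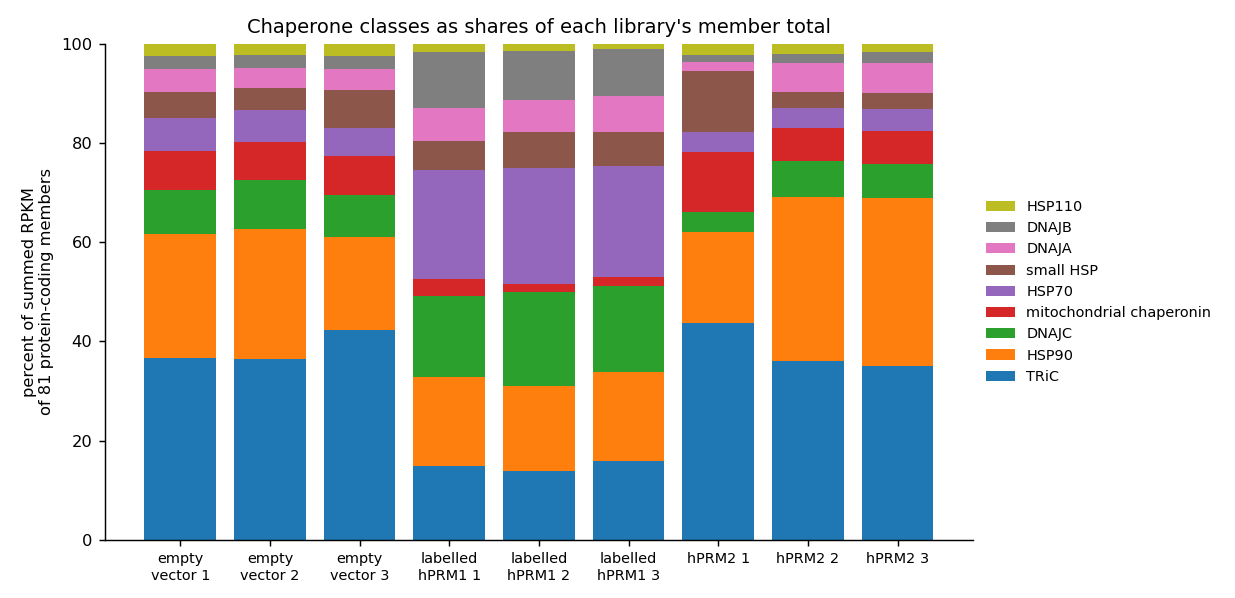
Stacked bars of the percent of summed RPKM of the 81 protein-coding members that each chaperone class takes in each of the 9 libraries. TRiC takes 35 to 43.8% in the empty vector and hPRM2 and 13.8 to 15.9% in the libraries labelled hPRM1, where HSP70 takes 21.9 to 23.5%.

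The partners of the chaperones, from lists of genes outside the name rule, went down with them in the libraries labelled hPRM1. Called lower were 15 of 16 co-chaperones of HSP70, 17 of 18 co-chaperones of HSP90, 9 of 9 partners of TRiC (prefoldin subunits and phosducin-like proteins), all 4 tested heat shock regulators and 10 of 10 tested other chaperones, with medians of -2.53, -2.77, -2.87, -3.37 and -2.77, beside 62.5% and -1.72 for all genes. Of the 57 tested genes of these lists together, the per-gene test called 32 lower and 0 higher (43 and 0 at an unadjusted p under 0.05). By the median of ratios the lower calls were 5, 6, 5, 2 and 4, and 1 co-chaperone of HSP70 and 3 of HSP90 were called higher, beside 23.6% and 35.5% of all genes. PFDN4, a prefoldin subunit that hands clients to TRiC, had the largest fall, from 119, 117 and 107 RPKM to 0.281, 0 and 0.316 (-6.60, adjusted p = 2.66e-06). PFDN4 thus passed the filter only through the empty vector, and the filter itself required a difference. The same held for BAG2, PPP5C and PDCL, which are among the lower calls counted here. HSF1, the regulator of the heat shock response, went from 72.9, 69.0 and 105 to 13.8, 15.1 and 8.39 RPKM (-2.64, adjusted p = 0.000171) and was at -0.23 and not called under the median of ratios. HSBP1, which binds and restrains HSF1, went from 263, 216 and 204 to 12.1, 1.28 and 1.30 RPKM (-5.80, adjusted p = 0.000241). The 2 partners that were not called were BAG1, which releases clients from HSP70, at 69.3, 26.6 and 29.9 against 22.5, 26.1 and 15.3, and FKBP8, a mitochondrial partner of HSP90, at 80.4, 62.6 and 48.4 against 29.1, 30.7 and 34.5, a difference of 0.97 that stayed just under 2-fold.

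For hPRM2 against the empty vector, no chaperone was called, and the members' median lay above that of all genes. Limma called 0 of the 64 tested members lower and 0 higher, where 1.37% of 13126 genes were called lower and 1.36% higher. At an unadjusted p under 0.05 there were 12 members lower and 4 higher, 25% of those tested and 25.5% of all genes, and the per-gene test of the study's methods also called 0 (0.0686% of all genes lower and 0% higher), with 12 and 3 at an unadjusted p under 0.05, 23.4% of members and 19.2% of all genes. A fit of all 9 libraries, which takes its spread from all groups, called 6 members lower and 3 higher (12.3% and 3.86% of all genes). For comparison, the unadjusted counts for the libraries labelled hPRM1 were 52 lower and 5 higher, 91.9% of members and 80.7% of all genes. Under the median of ratios and under quantile normalization 0 members were called as well (0.638% lower and 2.13% higher, and 0.533% and 2.61%, of all genes), with 3 lower and 14 higher at an unadjusted p under 0.05 in the former, 28.3% of members and 17% of all genes. Groups did not overlap for 24 of the 64 members (35.9% of all genes). The median change of the members was -0.21, beside -0.72 for all tested genes. The median SD between replicates on the log2 scale was 0.677 for members in hPRM2 and 0.25 in the empty vector.

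By class the medians less that of all genes were 1.27 for HSP90, 1.02 for the mitochondrial chaperonin, 0.96 for TRiC, 0.58 for HSP70, 0.51 for DNAJB, 0.22 for HSP110, 0.19 for DNAJA, -0.08 for DNAJC and -0.28 for the small HSPs. HSP90AB1 read 1049, 1337 and 1088 RPKM against 761, 900 and 706, above every control library, yet its difference of 0.55 ± 0.24 did not pass the test (adjusted p = 0.197). CCT2, at 1474, 1522 and 1479, TCP1, at 562, 339 and 325, and CCT4, at 1755, 1702 and 865, likewise lay above all control libraries, with differences of 0.28 ± 0.20, 0.66 ± 0.31 and 0.84 ± 0.32. HSPA1B, at 168, 94.2 and 92.6, did so too (0.58 ± 0.37, adjusted p = 0.345), and its share of the sum of HSPA1B and HSPA8 was 33.3% ± 3.32 against 23.2% ± 2.43, without overlap (exact permutation p = 0.1, the smallest possible). HSPA8 itself, at 286, 209 and 200.2, overlapped the control (-0.14 ± 0.29). Of the endoplasmic reticulum members, HSPA5 read 84.5, 95.3 and 128 (-1.09 ± 0.31, adjusted p = 0.102) and HSP90B1 105, 84.0 and 86.5 (-0.67 ± 0.30, adjusted p = 0.217), both below every control library, but neither passed the test. The median of the 13, -0.87, differed from that of all genes by -0.15. Other members below every control library included DNAJC1, DNAJC19, DNAJC21, DNAJC25, HSPA14 and HSPB8. The groups did not overlap for 24 of the 64 tested members in either direction, beside 35.9% of all genes. At an unadjusted p under 0.05 (limma) 12 members were lower and 4 higher, but 3 lower and 14 higher under the median of ratios. The balance of these counts turned with the scaling, so they do not show whether the members rose in general.

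Many of the widest hPRM2 values came from replicate 1 against the other 2 libraries. In replicate 1, HSPB1 read 1889 RPKM, HSPE1 1597 and CCT8 1336, while replicates 2 and 3 read 409 and 356, 520.5 and 328, and 413 and 372. In the other direction, DNAJA1, the main partner of HSPA8, read 78.9 in replicate 1 and 718 and 547 in the others. HSPA6 read 1.42 against 23.7 and 21.4, on about 8 reads against 64.2 and 73.0, and DNAJC7, a co-chaperone of HSP70 and HSP90, read 25.0 against 296 and 185. Replicate 1 thus held the highest values of HSPB1, HSPE1 and CCT8 and the lowest of DNAJA1, HSPA6 and DNAJC7 in its group. Less the median of all genes, the TRiC median was 1.41, 0.77 and 0.48 in the 3 libraries and the HSP90 median 1.09, 1.61 and 1.03.

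Without replicate 1 the test called 5 of 64 tested members lower and 4 higher, beside 12.3% and 5.30% of all genes. At an unadjusted p under 0.05 (limma) there were 39.1% of members and 42% of all genes, so members were not called more often than genes at large. DNAJA1 was higher by 2.55 on the log2 scale (adjusted p = 0.00768, limma), HSPA6 by 2.19 (0.0248), DNAJC28 by 1.98 (0.0493) and DNAJC14, of the endoplasmic reticulum membrane, by 1.5 (0.048). Lower were DNAJB5 at -2.19, DNAJC6, which uncoats clathrin vesicles, at -2.11, DNAJA3 at -1.59, DNAJC19 at -1.54 and HSPA4 at -1.24, with adjusted p between 0.0277 and 0.0497. With all 3 libraries the same 9 had adjusted p between 0.0554 and 0.639. For DNAJA3, at 157, 67.3 and 147 RPKM against 285 to 332, all 3 hPRM2 libraries lay below the control. DNAJB5, at 0, 0.910 and 0 RPKM against 4.61 to 5.73, passed the filter only through the empty vector. For DNAJB5 the filter itself thus required a difference. The same held for DNAJC6 in the fit without replicate 1, where it read 0 and 0.113 RPKM against 3.08 to 3.90. Of the 58 tested genes of the partner lists, 6 were called lower and 0 higher without replicate 1, beside 12.3% and 5.30% of all genes. They were BAG3 and BAG4, which bind HSP70, PPP5C, a phosphatase of the HSP90 cycle, HSF2, SERPINH1, the collagen chaperone, and AFG3L2, a mitochondrial protease. With all 3 libraries limma called 0 of the 58 tested partner genes, 12 of which were lower and 0 higher at an unadjusted p under 0.05 (14 and 0 by the per-gene test).

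**Figure D5:**
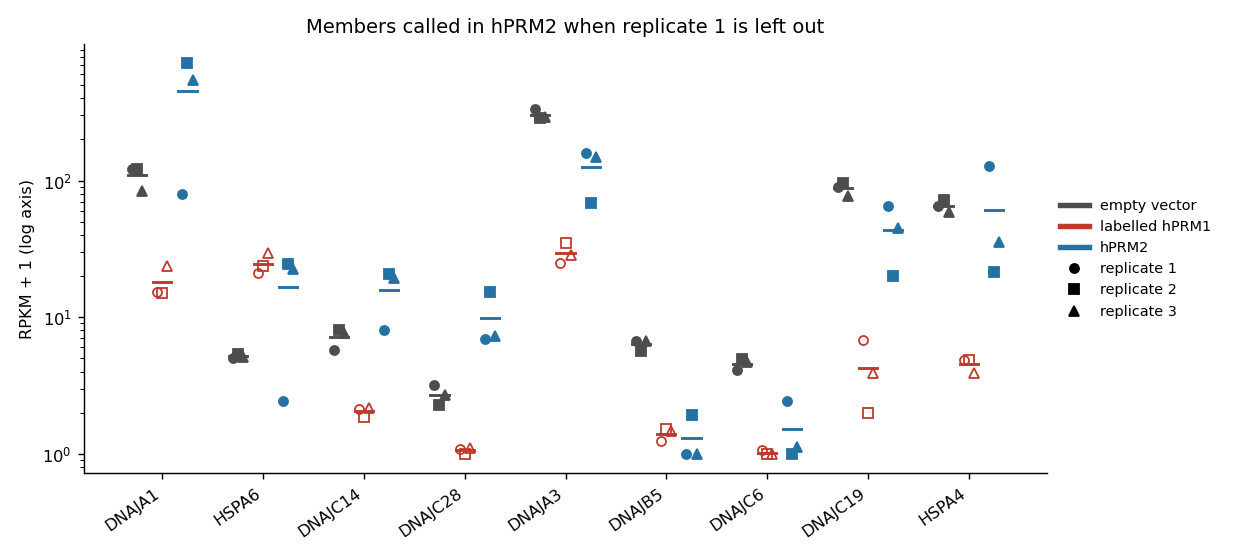
RPKM + 1 on a log axis in every library for the 9 members called in hPRM2 when its replicate 1 is left out, with colours, shapes and bars as in the plot of the HSP70 genes. For DNAJA1, HSPA6 and HSPA4 the circle of replicate 1 lies on the other side of the empty vector from the square and the triangle of replicates 2 and 3.

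Compared directly, the libraries labelled hPRM1 and hPRM2 differed much as the former differed from the empty vector. Of 56 tested members, 40 were called lower and 2 higher in the libraries labelled hPRM1 (37% and 16% of 11756 genes), whereas the per-gene test called 2 lower and 0 higher (0.876% and 0.987%), with 23 lower and 2 higher at an unadjusted p under 0.05. By limma the members were at a median of -2.54 beside -0.97 for all genes. Of the members called, 6 lower ones passed the filter only through hPRM2 and 1 higher one, DNAJA4, only through the libraries labelled hPRM1. The groups did not overlap for 46 of the 56 (62% of all genes). The 2 called higher were HSPA1A, at 4.54, and DNAJA4, and HSPA1B was lower, at -4.82. All 8 tested TRiC genes, both chaperonin genes and all 3 HSP90 genes were lower, with HSPE1 at -6.88, CCT2 at -6.38, CCT4 at -6.29 and HSP90AA1 at -5.64. HSPA6 was not called (1.15), its hPRM2 values of 1.42, 23.7 and 21.4 reaching into the 19.9 to 28.7 of the libraries labelled hPRM1. DNAJC5G, listed at 0 in the libraries labelled hPRM1, read 75.8, 11.4 and 23.6 in hPRM2 and 0, 7.50 and 0.270 in the empty vector. Of the partner lists, FKBP8 was the one called higher, by 1.5, and HSBP1 had the largest fall, -5.68. Under the median of ratios 22 of 60 members were called lower and 10 higher (16.1% and 31.2% of all genes), and under quantile normalization 34 lower and 6 higher (26.4% and 24.6%). Without hPRM2 replicate 1, 37 of 50 tested members were called lower and 3 higher (42.1% and 20.5%).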

How the data were processed

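RNA of 9 libraries, 3 per group as labelled, was analysed. The authors processed reads with nf-core/rnaseq (FastQC, Cutadapt, STAR and Salmon, versions not given in the sources used here, hg38 per the labels), removed mitochondrial genes, and deposited RPKM values, that is counts divided by gene length and by the reads of the library, without pooling. The table held 57338 genes, 98.6% of them with a symbol in the name table used here, no comparison columns of the authors and 0 unused sample columns. Each pair of groups was fitted with limma 3.58.1 in R 4.3.3 (lmFit, eBayes with trend and robust) on log2(RPKM + 1), a scale that understates changes of low genes, over genes with at least 1 RPKM in 3 of 6 libraries. Benjamini-Hochberg adjustment covered all genes tested, and the fit was tested on simulated data. Depth was estimated from single-transcript genes of GENCODE 29 (length less 250 bases), covers reads on genes, and a value of 0 allows up to 3 reads (counting error only). Shares were compared with exact permutation tests in Python 3.11.15 (pandas 2.3.3, numpy 2.4.6), and figures drawn with matplotlib 3.10.9.

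Each result was recomputed with the pseudocount at 0.1 or 5, the RPKM minimum dropped or raised to 10, the libraries rescaled (median of ratios or quantiles), all 9 libraries in 1 model, the replicate number as block, 1 library left out at a time, calls without the 2-fold limit, and a test with each gene's own variance as in the study's methods (the per-gene test). Named genes were HSPA8, HSP90AB1 and HSPA1B, the most abundant member per class, all tested HSP90, chaperonin, TRiC and HSPA1 genes, the 5 largest rises and falls among called members per comparison, members at 0 in a group and at a mean of at least 10 RPKM in another, the partner genes with the largest called changes, and HSF1. Other genes named were chosen after their values were seen. The members and lists were chosen with earlier results of these data known. Promoter sequences are from RefSeq (GRCh38.p14). The other assays of the study were not analysed here.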

Additional observations from a re-analysis of the deposited data

How the results depend on the processing

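Most values kept their direction and their side of the threshold: 1224 values of named genes did, while 60 lost and 14 gained their call and 26 changed sign, and 91 of the shares, 73 of the counts and 194 of the class medians stayed within their limits. In the cases below the cause was not tested, unless fewer libraries or genes tested show it. For the libraries labelled hPRM1 against the empty vector, the median of ratios called 27 members lower and 8 higher, the per-gene test 33 and 2, and a minimum of 10 RPKM or a pseudocount of 5 called 2 higher. Against hPRM2 the median of ratios called 22 lower and 10 higher, the per-gene test 2 and 0, quantile normalization 6 higher, and a minimum of 10 or a pseudocount of 5 called 1 higher. For hPRM2 against the empty vector, a fit of all 9 libraries called 6 lower and 3 higher (12.3% and 3.86% of all genes).

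Class medians of the libraries labelled hPRM1 against the empty vector, less the median of all genes, moved as follows. Under the median of ratios they were -1.31 for HSP90, -2.14 for the small HSPs, -2.36 for TRiC, -0.78 for DNAJA and -0.01 for DNAJB. With a minimum of 10 they were -0.75 for HSP70, -1.63 for HSP110, -1.04 for HSP90, -1.01 for the small HSPs, -3.16 for the mitochondrial chaperonin, -2.04 for TRiC, -0.44 for DNAJA, 0.80 for DNAJB, -0.02 for DNAJC and -1.01 for all members. Without a filter they were -3.29 for HSP110, -2.70 for HSP90, 0.23 for the small HSPs, -4.82 for the mitochondrial chaperonin, -3.62 for TRiC, -1.97 for DNAJA, -1.32 for DNAJB, -1.07 for DNAJC and -1.70 for all members. With a pseudocount of 0.1 they were -1.22 for HSP90, -2.87 for the small HSPs, -2.29 for TRiC, -0.70 for DNAJA and 0.10 for DNAJB, and with a pseudocount of 5 they were -2.09 for HSP110, -2.47 for HSP90, -1.60 for the small HSPs, -3.24 for TRiC and -1.01 for all members. With quantile normalization they were -2.49 for HSP110, -1.31 for HSP90, -2.43 for TRiC, -0.78 for DNAJA, -0.12 for DNAJB and -1.12 for all members. For hPRM2 the HSP90 median was 0.96 without a filter and with a pseudocount of 5, 1.54 with a pseudocount of 0.1 and 0.43 with quantile normalization. That of the small HSPs was 0.93 with a minimum of 10, 0.35 without a filter, -0.62 with a pseudocount of 0.1 and -0.56 with quantile normalization, which gave 0.36 for the mitochondrial chaperonin and 0.34 for TRiC. All members together were at 0.20 without a filter, 0.77 with a pseudocount of 0.1 and 0.21 with quantile normalization.

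Leaving out 1 library at a time gave 40 to 51 members lower and 2 to 4 higher for the libraries labelled hPRM1 against the empty vector, 33 to 37 and 1 to 3 against hPRM2, and 0 to 5 and 0 to 4 for hPRM2 against the empty vector. The lower counts of the first comparison came mostly from 11 genes that pass the filter only with all 3 control libraries, DNAJA4 and HSPA1L pass it only with all 3 libraries labelled hPRM1, and DNAJC24 or DNAJC30 lost its call without empty vector replicate 1, 2 or 3 or any library labelled hPRM1. HSPA1L also lost its call without empty vector replicate 3. Against hPRM2, DNAJC10, DNAJB11, DNAJC1, HSPA4L, DNAJC18 and DNAJC30 lost their calls without any 1 of the libraries labelled hPRM1. For the libraries labelled hPRM1 against the empty vector the class medians less that of all genes then ran from -2.83 to -2.10 for HSP110, -2.15 to -1.49 for HSP90, -2.26 to -1.57 for the small HSPs, -4.26 to -3.43 for the mitochondrial chaperonin, -3.20 to -2.49 for TRiC, -1.47 to -0.94 for DNAJA, -0.68 to -0.19 for DNAJB, -0.71 to -0.20 for DNAJC and -1.62 to -1.13 for HSP70 and for all members.

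The signs that turned belonged to changes that were not called in hPRM2, except for DNAJB6 and HSF1. Under the median of ratios hPRM2 against the empty vector gave CCT6A 0.50, CCT7 0.41, DNAJB6 0.39, DNAJC8 0.35, FKBP8 0.01, HSBP1 0.44, HSPA8 0.42 and HSPD1 0.52, and the libraries labelled hPRM1 gave DNAJB6 0.39 against the empty vector and DNAJB6 0.01 and HSF1 0.09 against hPRM2. Quantile normalization gave CCT2 -0.13 and DNAJB6 0.04 in hPRM2. Across all libraries left out, hPRM2 changes ran from -0.27 to 0.07 for CCT6A, -0.36 to 0.00 for CCT7, -0.25 to 0.68 for CCT8, -0.74 to 0.32 for HSBP1, -0.54 to 0.66 for HSPB1, -0.20 to 0.18 for HSPD1, -0.01 to 1.14 for HSPE1, -0.06 to 0.36 for CCT3 and -0.17 to 0.18 for CCT5. Without hPRM2 replicate 1 the values were CCT3 -0.06, CCT5 -0.17, CCT8 -0.25, HSPB1 -0.54, HSPD1 0.18 and HSPE1 -0.01. Without hPRM2 replicate 2 they were CCT6A 0.07, CCT7 0.00 and HSBP1 0.32, without replicate 3 HSBP1 0.07, and without empty vector replicate 1 CCT5 -0.05 and CCT6A 0.05, or 0.04 for CCT6A without replicate 2.

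Same-numbered libraries of different groups did not deviate together (correlations of -0.078 to 0.08), so the main fits did not pair them. The labels do not say what the numbers mean, and these correlations cannot show whether they mark a shared transfection or batch. With the replicate number as a block, 51 members were called lower and 4 higher for the libraries labelled hPRM1 against the empty vector, 40 and 2 against hPRM2, and 0 and 0 for hPRM2 against the empty vector. Depth limits the hPRM2 values most, where a listed 0 allows up to 3 reads.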

Other observations

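Of the 13 non-coding or read-through genes named after a chaperone, 6 were listed at 0 in all 9 libraries, and 3 of the other 7 had values in more than 1 library of a group. DNAJC3-DT, a divergent transcript of DNAJC3, read 2.23, 4.09 and 5.41 RPKM in the empty vector, then 1.93, 4.38 and 2.09 in the libraries labelled hPRM1 and 19.7, 29.8 and 19.2 in hPRM2. The hPRM2 libraries lay above all others, with a difference of 2.31 from the empty vector (adjusted p = 0.0676, limma) that passed without hPRM2 replicate 1 (2.40, adjusted p = 0.0327), while DNAJC3 itself, at 4.94, 1.62 and 9.20 against 15.3, 9.26 and 5.40, was at -0.92 (adjusted p = 0.432). DNAJC27-AS1, an antisense transcript, read 0, 59.6 and 85.9 in the empty vector, then 31.6, 22.0 and 17.7 in the libraries labelled hPRM1 and 0 in all 3 of hPRM2, so that the control libraries alone spanned the whole range.

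Of 81 pseudogenes that the name rule would have matched, 62 were listed at 0 in all 9 libraries and 4 reached 10 RPKM in some library. DNAJC8P2, a processed copy of DNAJC8, read 2.89, 5.90 and 8.31 in the empty vector, then 12.1, 19.8 and 6.78 in the libraries labelled hPRM1 and 36.9, 26.2 and 55.7 in hPRM2, a difference of 2.62 from the empty vector (adjusted p = 0.0587, or 0.0387 under the median of ratios), where DNAJC8 was at -0.22. Another copy, DNAJC8P4, spread from 0 to 210.5 RPKM among the hPRM2 libraries (0.35, adjusted p = 0.914). HSP90AA2P, at 76.1, 78.2 and 27.8, then 0.536, 1.90 and 1.82, then 29.9, 141 and 127, followed the order of HSP90AA1 across the groups.

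The testis gene HSPB9 read 0, 11.3 and 12.6 RPKM in hPRM2 and at most 0.839 in the other 6 libraries, and DNAJC5G was likewise highest in hPRM2. HSPB9 did not pass the filter and was not tested.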
